A study of Homo sapiens with 12 samples.

Results

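The adaptor protein complex 3 (AP-3) was followed through the senescence of a human beta-cell line. It was represented by 8 genes: its 7 subunit genes AP3B1, AP3B2, AP3D1, AP3M1, AP3M2, AP3S1 and AP3S2, and VPS41, whose product works with AP-3. They were taken by name from a table of 35337 genes, all 8 were listed in it, and all 8 passed the filter on low values that left 13847 genes for testing. The set was chosen by a reading of the senescent against non-senescent difference in these same samples, so this difference is described for the members by its size and error, without a test. Of the 8, 1 (AP3B1) was higher in senescent cells by more than the calling limits, which 11.6% of all tested genes were as well. AP3S1 was lower in both batches by less than 1.5-fold, and the other 6 differed by at most 0.22 on the log2 scale.

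AP-3 is a coat complex that picks membrane proteins from endosomes and the Golgi and packs them into vesicles bound for lysosomes and lysosome-related organelles. Each complex holds a beta and a delta large subunit, a mu subunit that reads sorting signals and a small sigma subunit. Beta and mu come in a form made in most tissues (AP3B1, AP3M1) and a form best known from neurons (AP3B2, AP3M2), whereas delta has a single gene (AP3D1). Loss of the AP3B1 product causes a form of Hermansky-Pudlak syndrome. In endocrine cells, AP-3 and its partner VPS41 are known to act when regulated secretory granules, the stores of insulin in beta cells, receive their membrane proteins.

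The cells were EndoC-βH3, a line derived from human fetal pancreas that proliferates through introduced SV40 large T antigen and hTERT genes, which a tamoxifen-activated Cre recombinase removes. All 12 samples were of this single line, carried the genotype label WT and were grown in the same low glucose medium. The 6 senescent samples had received 4-hydroxytamoxifen (4-OHT) for 3 weeks, at a dose given as 1 mM in the labels and in the micromolar range in the methods of the study. The 6 non-senescent samples were controls without 4-OHT, so excision of the transgenes, 4-OHT itself and the arrest of proliferation cannot be told apart here. The labels add a letter, A or B, to each replicate, and this was read as its batch. Batch A gave 2 libraries per group, with 8873569 to 17106776 reads each, and batch B gave 4 per group, with 4672924 to 7063264 reads each. Nothing states that the samples came from separate cultures, so errors measure the spread between these samples, which may be technical.

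The labelled cell type was checked against its markers. All 9 beta-cell markers examined, INS, IAPP, PDX1, NKX6-1, MAFA, SLC30A8, CHGA, SCG5 and G6PC2, had reads in every library, and their summed level was 519070 to 644223 normalised read counts without senescence and 662962 to 853394 with it. Most of this sum was CHGA (478600 to 621389 against 474757 to 772538), which is made by endocrine cells in general. INS was at 11021 to 34331 in non-senescent and 49685 to 185508 in senescent samples, and in non-senescent samples it lay below SST, the somatostatin gene of delta cells. In senescent samples the ranges of INS and SST overlapped, and the lowest INS value lay below every SST value (114932 to 142626). NKX6-1 and SLC30A8 had log2 fold changes of -0.37 and -0.16, opposite in sign to INS (2.23). Markers of other islet and pancreas cells (18 genes, all with a read in at least 1 library) summed to 164935 to 290743 in non-senescent and 115743 to 146165 in senescent samples, and nearly all of this was SST (159785 to 287479 against 114932 to 142626). GCG was at 2463 to 5461 against 507 to 2985. The ductal gene KRT19 was at 236 to 378 against 75.9 to 157, and the acinar gene CPA1 at 33.9 to 58.4 against 143 to 248. Of the 18 markers 11 passed 10 reads in at least 1 library, among them PECAM1, PTPRC, GHRL and CD68 with at most 13 to 37 reads, while PPY, PRSS1, CELA3A and CDH5 had at most 3 reads in any library. Both marker sums moved with the group, and their part in the results on AP-3 was not tested. In these bulk samples, fewer cells of a type and less RNA per cell cannot be told apart.

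Values are normalised read counts, the reads of a gene divided by a size factor per library. Senescence differences are log2 fold changes from a limma fit of log2(value + 1) with batch as a covariate, each with its standard error (SE), positive where senescent cells were higher. Calls needed both an adjusted p under 0.1 (Benjamini-Hochberg) and more than a 1.5-fold difference.

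AP3B1 encodes the widely made beta subunit, beta-3A. The gene lies on chromosome 5 (GRCh38, 78000522 to 78294762, minus strand). The non-senescent samples of batch A measured 428 and 365 normalised read counts, and the senescent samples of that batch measured 835 and 733. In batch B the 4 non-senescent samples measured 861, 862, 1039 and 1006, and the 4 senescent samples measured 3814, 3139, 3132 and 2801. Within each batch every senescent sample stood above every non-senescent sample. Across batches the ranges met, because the non-senescent samples of batch B were higher than the senescent samples of batch A.

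AP3B1 averaged 760 ± 292 in non-senescent and 2409 ± 1301 in senescent samples (SD, n = 6 each). The log2 fold change was 1.51 ± 0.12 (SE), or 2.84-fold. Batch A alone gave 0.98 and batch B alone gave 1.77, so the response in batch B exceeded that in batch A by 0.79 ± 0.18 (SE). This contrast chose the members and no test is given. Leaving out single libraries gave 1.43 to 1.60.

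**Figure D1:**
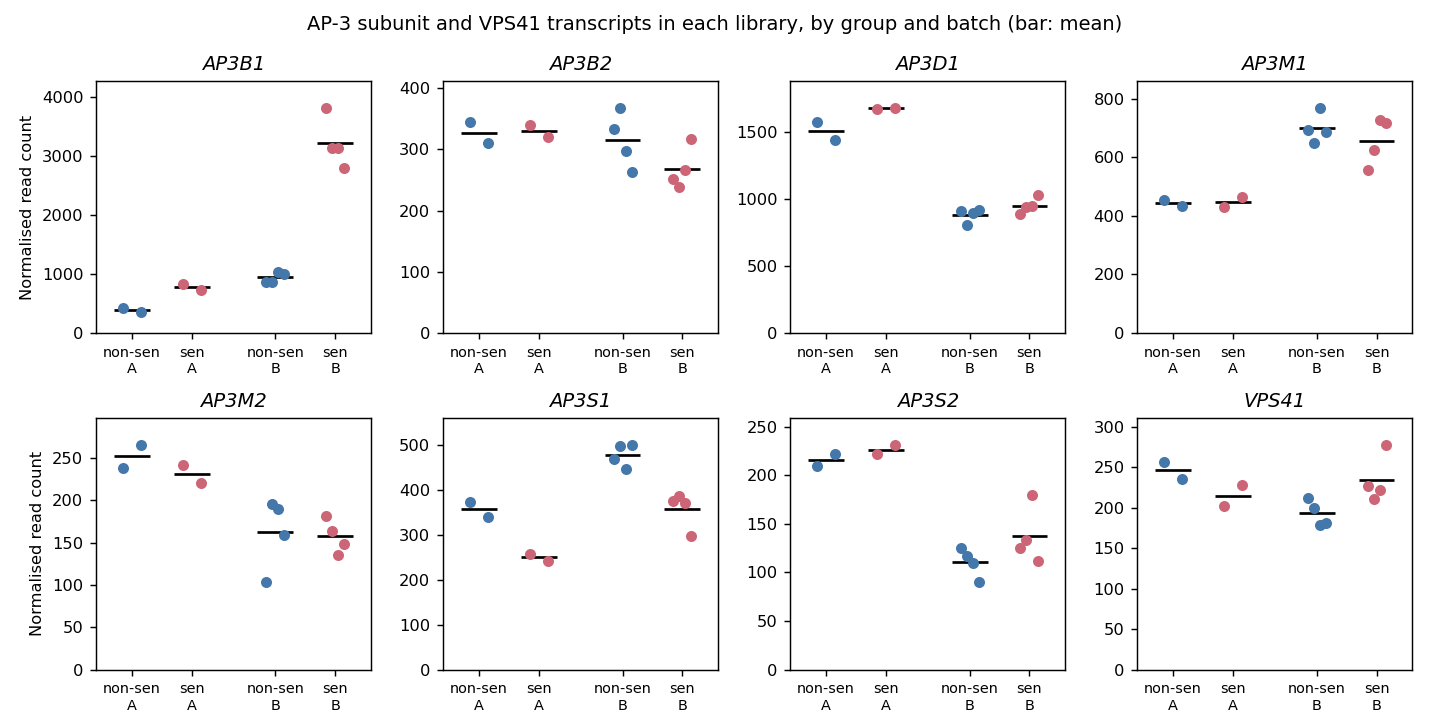
Normalised read counts of the 8 genes in each of the 12 libraries, grouped as non-senescent and senescent in batch A (2 libraries each) and batch B (4 each). AP3B1 stands higher in senescent libraries of both batches, with 2801 to 3814 in senescent batch B, and AP3S1 stands lower in both, while the groups of the other 6 genes overlap in at least 1 batch.

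Of the 8 members, 1 was called higher, beside 11.6% of the 13847 tested genes, and 0 were called lower, beside 11.8% of the tested genes. With every library scaled to the same total, 36.9% of all calls were higher, against 49.6% with the deposited scaling. By separation of the groups, 1 of 8 members (AP3B1) was higher without overlap in both batches, beside 11.9% of all tested genes, and 1 of 8 (AP3S1) was lower without overlap in both batches, beside 11.9%. The median log2 fold change of the members was 0.03 and that of all tested genes was 0.01.

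AP3B2 encodes beta-3B, the neuronal and neuroendocrine partner of the beta-3A form. It lies on chromosome 15 (82659281 to 82710112, minus strand). Its non-senescent samples ranged from 263 to 368 with a median of 322, and its senescent samples from 238 to 340 with a median of 292. The groups overlapped in both batches. The log2 fold change was -0.15 ± 0.10 (SE), from 0.01 within batch A and -0.23 within batch B. Where AP3B1 separated the groups in both batches, AP3B2 separated them in neither. The annotation places CPEB1-AS1 over the 3′ end of AP3B2 on the opposite strand, and whether the counting used the strand is not stated.

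AP3D1 encodes delta, the large subunit found in every AP-3 complex, and lies on chromosome 19 (2100988 to 2164468, minus strand). It ranged from 807 to 1577 in non-senescent samples (median 915) and from 889 to 1680 in senescent samples (median 988). The log2 fold change was 0.12 ± 0.06 (SE), with 0.16 in batch A, where both senescent samples stood above both non-senescent ones, and 0.11 in batch B, where the groups overlapped. With every library scaled to the same total it was 0.02.

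The mu subunits had the smallest differences. AP3M1, the widely made form on chromosome 10 (74120255 to 74150842, minus strand), averaged 615 ± 137 in non-senescent and 587 ± 126 in senescent samples (SD, n = 6 each), a log2 fold change of -0.06 ± 0.08 (SE). AP3M2, the form best known from neurons, on chromosome 8 (42152946 to 42171673, plus strand), averaged 192 ± 57.3 and 182 ± 41.7, a log2 fold change of -0.05 ± 0.14 (SE). Neither separated the groups in either batch. The 3′ end of AP3M1 overlaps VCL on the opposite strand. The AP3M2 value rested on 69 to 539 reads per library, the lowest count among the members.

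AP3S1 encodes sigma-3A, a small subunit that holds the core of the complex together. It lies on chromosome 5 (115841592 to 115914081, plus strand). The non-senescent samples of batch A measured 373 and 341 and the senescent ones 259 and 242. In batch B the non-senescent samples measured 470, 497, 447 and 501, and the senescent ones 374, 387, 371 and 298. Every senescent sample was therefore below every non-senescent sample of its batch, and the direction was opposite to that of AP3B1.

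The mean of AP3S1 was 438 ± 66.5 in non-senescent and 322 ± 63.8 in senescent samples (SD, n = 6 each). The log2 fold change was -0.45 ± 0.08 (SE), a fold of 0.730, from -0.51 within batch A and -0.43 within batch B. Leaving out single libraries gave -0.48 to -0.40. The change was under the 1.5-fold limit, and under the alternative settings it ranged from -0.56 to -0.43.

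A stretch of AP3S1 is shown because it is the member that was lower without overlap in both batches. It lies before an alternative RefSeq start (GRCh38.p14, plus strand) but inside the annotated gene, after its first start and outside its exons, for 158 bases at chr5:115841777-115841934. Capitals mark the GC box, searched as GGGCGG on both strands.
AP3S1: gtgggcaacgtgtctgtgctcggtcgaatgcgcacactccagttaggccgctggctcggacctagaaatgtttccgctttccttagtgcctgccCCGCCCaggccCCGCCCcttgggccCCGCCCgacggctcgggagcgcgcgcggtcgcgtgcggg

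The stretch held 3 GC boxes, all read as CCGCCC, the reverse complement of the motif. A GC box was present in 42.6% of 35116 RefSeq promoters over the 250 bases before the start, so its presence is common. The stretch is shorter than these windows, and the full 250-base windows of the AP3S1 entries held 4, 2 and 3 GC boxes. The same 250-base windows of 5 members with an entry (AP3S1, VPS41, AP3M1, AP3B2 and AP3S2) were searched for 5 other motifs on both strands: the E-box CACGTG, the CRE TGACGTCA, the ETS core CCGGAAG, the CCAAT box CCAAT and the interferon response element core GAAANNGAA. VPS41 held 1 CCAAT box, which 32.0% of all promoters held, AP3S2 held 1 ETS core, which 8.52% held, and AP3B2 held 2 GC boxes. All 250 bases of the AP3S2 window and 237 of the 250 of AP3B2 lay in annotated exons of the same gene, with these motifs among them. The VPS41 window (chr7:38909192-38909441) lay outside its exons but inside the annotated gene. These windows thus preceded a RefSeq start but lay wholly or mostly inside the gene. No window of a member held the E-box (6.34% of all promoters), the CRE (1.65%) or the interferon response element core (6.88%). AP3B1, AP3D1 and AP3M2 were not searched.

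AP3S2, the sigma-3B gene on chromosome 15 (89830599 to 89894638, minus strand), did not share the shift of its paralog. It ranged from 90.7 to 222 in non-senescent samples (median 121) and from 112 to 231 in senescent samples (median 156). The log2 fold change was 0.22 ± 0.13 (SE), from 0.07 within batch A and 0.30 within batch B, and the groups overlapped in both.

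VPS41 belongs to the HOPS tethering complex, which joins late endosomes to lysosomes, and it also binds AP-3. The gene lies on chromosome 7 (38722974 to 38932394, minus strand). In batch A the non-senescent samples measured 256 and 236 and the senescent samples 202 and 228. In batch B the non-senescent samples measured 212, 200, 178 and 181, and the senescent samples 227, 211, 222 and 278. The senescent samples were the lower ones in batch A, without overlap, and mostly the higher ones in batch B, with overlap.

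The log2 fold change of VPS41 was 0.12 ± 0.11 (SE) over both batches, but -0.19 within batch A and 0.28 within batch B. The batches differed in this response by 0.47 ± 0.20 (SE). Senescent replicate B4 had the highest value, and without it the log2 fold change was 0.05. A single value over both batches therefore describes neither batch of VPS41.

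**Figure D2:**
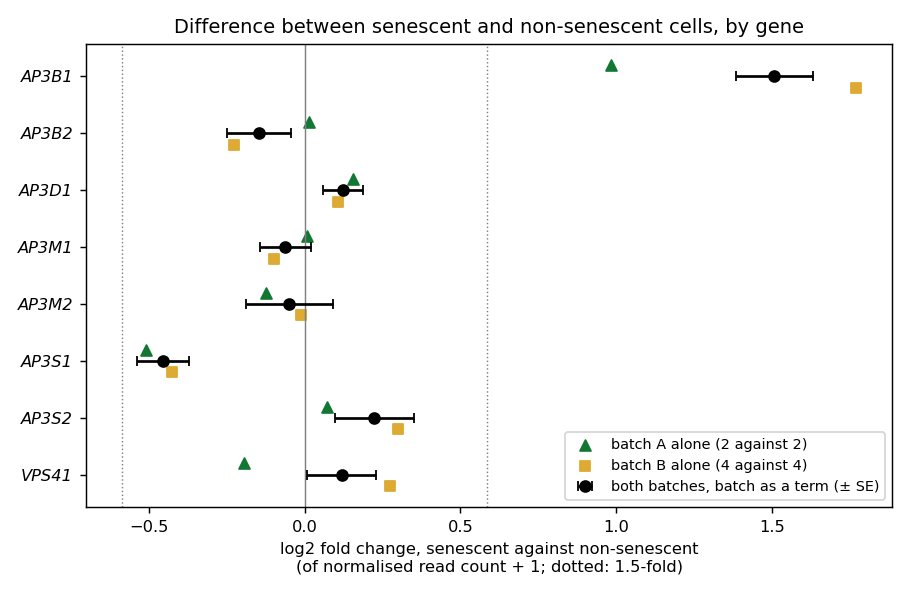
Log2 fold change (senescent against non-senescent) of the 8 genes over both batches with its SE, and the fold change within batch A (2 against 2 samples) and within batch B (4 against 4). AP3B1 stands apart at 1.51, AP3S1 lies furthest below 0 in both batches, and VPS41 has opposite signs in the 2 batches.

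The paralog pairs were compared within each library, which removes the library's scaling. CEL-seq2 reads only the 3′ end, so counts do not grow with transcript length, but capture may still differ between genes and the ratios are compared between libraries, not read as relative amounts of protein. The log2 ratio of AP3B1 to AP3B2 was on average 0.27 in non-senescent and 1.24 in senescent samples of batch A. In batch B it was 1.58 ± 0.34 and 3.58 ± 0.33 (SD, n = 4 each). In linear terms, AP3B1 had 1.17 to 1.24 reads per AP3B2 read in non-senescent and 2.28 to 2.45 in senescent samples of batch A. In batch B it had 2.34 to 3.81 and 8.83 to 15.1, so the ratio differed between the batches as well as between the groups.

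The sigma pair moved the other way. The log2 ratio of AP3S1 to AP3S2 was 0.73 in non-senescent and 0.14 in senescent samples of batch A, and 2.11 ± 0.24 and 1.39 ± 0.24 (SD, n = 4 each) in batch B. The groups differed by -0.58 within batch A and by -0.72 within batch B. The mu pair, AP3M1 to AP3M2, differed between the groups by 0.13 within batch A and by -0.09 within batch B, where the SDs were 0.42 and 0.36. In GENCODE v44, no 31-base stretch of the last 300 bases of any member's reference transcript was found in the transcripts of another gene. The paralogs thus share no such sequence at that end, which CEL-seq2 reads. The annotation used for the counting is not given and listed a readthrough entry, C15orf38-AP3S2. Whether AP3S2 shares reads with that entry was not tested.

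**Figure D3:**
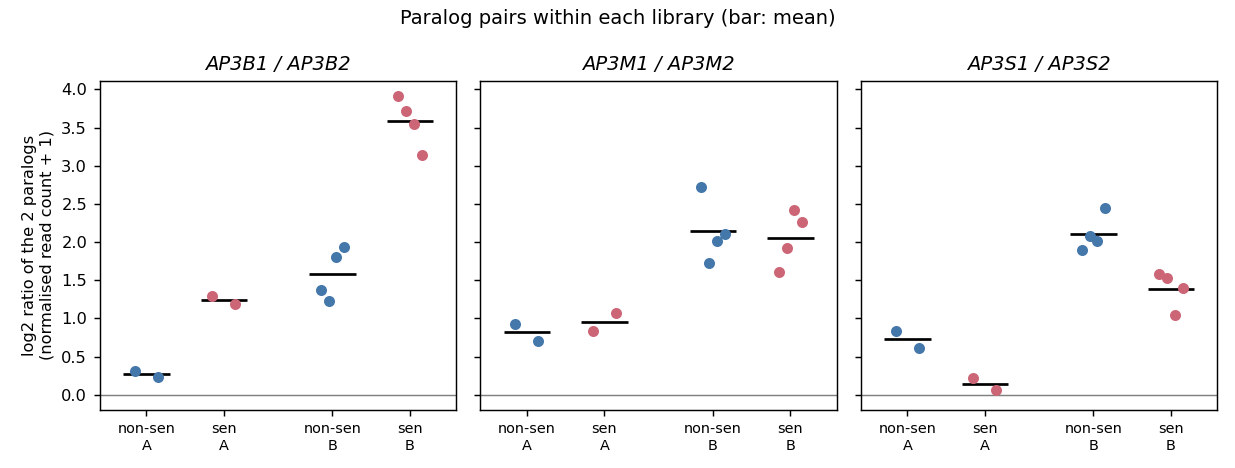
Log2 ratio of the normalised read counts of 3 paralog pairs in each library, with the mean of each group and batch as a bar. The AP3B1 to AP3B2 ratio is higher in senescent libraries of both batches (means 0.27 to 1.24 in A and 1.58 to 3.58 in B), and the AP3S1 to AP3S2 ratio is lower (0.73 to 0.14 and 2.11 to 1.39).

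The level of the members also differed between the batches, a measure that played no part in choosing them and was tested with the batch term of the same limma fit. AP3B1 was 3.11-fold higher in batch B (adjusted p = 6.87e-09) and AP3M1 was 1.51-fold higher in batch B (adjusted p = 9.97e-06). AP3D1 was 1.74-fold higher in batch A (adjusted p = 1.66e-08), AP3S2 1.80-fold higher in batch A (adjusted p = 2.63e-05) and AP3M2 1.53-fold higher in batch A (adjusted p = 0.00157). AP3S1 was higher in batch B by 0.46 ± 0.09 (SE) on the log2 scale, with an adjusted p of 0.000205 and under the 1.5-fold limit. AP3B2 (-0.19 ± 0.11, adjusted p = 0.143) and VPS41 (-0.12 ± 0.12, adjusted p = 0.388) passed neither limit.

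In all, 2 of 8 members were called higher in batch B, beside 26.3% of the tested genes, and 3 of 8 higher in batch A, beside 26.8%, shares close to the background. Every called batch difference of a member other than that of AP3B1 was under 2-fold, and those of AP3M1 and AP3M2 lay near the 1.5-fold limit. The call of AP3M1 was lost, at a log2 difference of 0.57 to 0.58, without non-senescent replicate A2 or B3 or senescent replicate B3 or B4, and that of AP3M2 without non-senescent replicate A2 (-0.57) or B1 (-0.52). AP3S2 has a readthrough partner in the table, C15orf38-AP3S2, with 17 to 49 reads in each of the 4 libraries of batch A and 0 reads in each of the 8 libraries of batch B, where a count of 0 allows up to 3 reads per library. The part of this readthrough row in the batch difference of AP3S2 was not tested.

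The other genes of the sorting machinery were taken from 9 lists. Among their 71 genes, all 71 tested, 3 were called higher, 4 lower and 64 neither, beside 11.6% higher and 11.8% lower of all tested genes, and the median log2 fold change was 0.06. The lists were drawn up with earlier results of these data known. The sister coat complexes are AP-1 at the trans-Golgi network, AP-2 at the plasma membrane, and AP-4 and AP-5 on internal membranes. None of the 5 AP-2, 4 AP-4 or 6 AP-5 genes was called, with medians of -0.19, -0.10 and 0.01. At an unadjusted p under 0.05 in limma, 4, 0 and 1 of these genes passed, and edgeR and DESeq2 called 0 of them.

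Of 8 AP-1 genes 1 was called lower, beside 11.8% of all tested genes. AP1S2, a small sigma subunit of AP-1, fell from 193 ± 29.1 to 86.7 ± 15.9 (SD, n = 6 each, as for the genes that follow), a log2 fold change of -1.15 ± 0.12 (SE, limma adjusted p = 6.44e-07). The median of the AP-1 list was 0.13.

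VPS39, a HOPS subunit beside VPS41 in the tether, rose from 125 ± 44.1 to 211 ± 63.8 (log2 fold change 0.78 ± 0.14 SE, limma adjusted p = 0.000371). It was the called gene among 7 HOPS and CORVET genes, beside 11.6% of all tested genes called higher. Whether VPS39 and VPS41 differ in their response was not tested.

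The BLOC complexes act with AP-3 in building lysosome-related organelles, and several of their genes, like AP3B1, are mutated in Hermansky-Pudlak syndrome. Of 13 BLOC genes 2 were called, both lower, a share near the 11.8% of all tested genes. Both encode BLOC-1 subunits. BLOC1S6 (pallidin) fell from 2076 ± 842 to 1251 ± 342 (log2 fold change -0.65 ± 0.12 SE, limma adjusted p = 0.000241), or -0.26 within batch A and -0.85 within batch B. Without the batch term its adjusted p was 0.183, and it was not called without non-senescent replicate B4 or senescent replicate B4 (-0.58 in both fits). BLOC1S5 (muted) fell from 114 ± 19.0 to 72.4 ± 9.48 (log2 fold change -0.65 ± 0.14 SE, limma adjusted p = 0.00151) and was not called without non-senescent replicate B3 (-0.58). The median of the BLOC list was -0.26, beside 0.01 for all tested genes. By separation of the groups, 5 of the 13 were lower and 0 higher without overlap in both batches, beside 11.9% of all tested genes in each direction. Among them was BLOC1S1 (log2 fold change -0.48 ± 0.07 SE, limma adjusted p = 4.87e-05), which was under the fold limit and was named after the values were seen.

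The 8 genes for AP-3 cargo and regulators (LAMP1, LAMP2, CD63, SCARB2, PI4K2A, VAMP7, ARF1 and AGAP1) gave 0 calls in either direction with limma, with a median of 0.17 and a range from -0.47 to 0.32. The 7 clathrin and GGA genes, the outer coat and its adaptors, gave 0 calls as well (median 0.13). Of these lists 5 and 2 genes passed an unadjusted p under 0.05, and edgeR and DESeq2 also called 0. Differences under the fold limit were still seen. SCARB2, a lysosomal membrane protein, was lower without overlap in both batches (log2 fold change -0.47 ± 0.08 SE, limma adjusted p = 0.000115), at -0.78 within batch A, and CD63, a tetraspanin of late endosomes, was higher without overlap in both batches (0.32 ± 0.07 SE, limma adjusted p = 0.00117). ARF1 was higher without overlap in both batches (0.14 ± 0.07 SE), but its limma adjusted p of 0.162 did not pass the limit of 0.1. In all, 2 of the 8 cargo and regulator genes were higher and 1 was lower without overlap, beside 11.9% of all tested genes in each direction. Of the 7 clathrin and GGA genes 1 was higher and 1 lower without overlap in both batches, beside the same shares. CLTC was the higher one (0.52 ± 0.09 SE, limma adjusted p = 0.000118) and CLTA the lower one (-0.33 ± 0.06 SE, limma adjusted p = 0.000672). These genes were named after the values were seen.

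Among 13 factors of dense-core granule biogenesis, 2 were called higher and 1 lower, shares near those of all tested genes (11.6% and 11.8%), with a median of 0.08. CCDC186, a Golgi coiled-coil protein needed for granule maturation, rose from 240 ± 36.3 to 453 ± 152 (log2 fold change 0.85 ± 0.11 SE, limma adjusted p = 1.38e-05). VPS51, a subunit shared by the GARP and EARP tethers, rose from 195 ± 19.3 to 297 ± 41.8 (0.60 ± 0.11 SE, limma adjusted p = 0.000312), just past the fold limit, and lost the call without non-senescent replicate A1 (0.54), A2 (0.58) or B4 (0.58) or senescent replicate A1 (0.53) or B3 (0.58). BAIAP3, a Munc13 relative, fell from 51.0 ± 26.9 to 21.8 ± 12.8 (-1.21 ± 0.27 SE, limma adjusted p = 0.00186). Its groups overlapped in batch B, where senescent replicate B1 (24.2) stood above non-senescent replicate B2 (22.0). The senescent libraries of batch B held only 7 to 20 reads of it.

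The genes whose pattern was most like that of AP3B1 were found from the root mean square difference of log2 values over the 12 samples after centring each batch. The 3 closest of the tested genes were TTR (difference 0.140), PROC (0.160) and BTBD17 (0.176). Their log2 fold changes were 1.59, 1.61 and 1.57, and, as for AP3B1, those within batch B (1.88, 1.88 and 1.73) were larger than those within batch A (0.99, 1.07 and 1.25). Likeness is a description over these 12 samples, which share their libraries and their groups. Because the genes were chosen by closeness to AP3B1 in these samples, similar changes within each batch follow from the choice.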

How the data were processed

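Poly(A) RNA of 12 EndoC-βH3 samples was measured by CEL-seq2. Per the labels and the methods of the study, Cutadapt was used by the authors for trimming, Salmon 0.13.1 for quantification on GRCh38 and DESeq2 for normalisation. The annotation, strand use and handling of molecular identifiers are not given in the sources used here. The deposited values are a signal, reads divided by a size factor per library. All non-zero values (100% of 196021) were whole reads within a tolerance of 0.01 read. The deposited log2 fold changes with their errors, test statistics (a score) and p-values of the authors' own comparison were not used. All value columns matched a sample by name (0 unmapped).

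Genes with a mean of at least 5 (13847) were tested with limma 3.58.1 in R 4.3.3 on log2(value + 1) with intensity trend, batch and group, and called at an adjusted p under 0.1 (Benjamini-Hochberg) with more than a 1.5-fold change. The log2(value + 1) scale understates changes of low genes. The 8 members were part of this fit. Because they were chosen on the senescence term, that term is given for them as a size, an SE and a count past the limits, as a description that supports nothing, and the batch term was tested. Libraries held 4672924 to 17106776 reads, and a count of 0 allows up to 3 reads per library, for counting error only. The members and lists were chosen with earlier results of these data known. Named were all members, the 2 largest called rises and falls of each list, and the 3 genes most like the member with the largest change. Alternatives varied pseudocount, filter, scaling, batch term, trend, replicate block, batches, single libraries and tool (edgeR 4.0.16, DESeq2 1.42.0, on recovered reads). The fit was tested on simulated data with known changes. Replicate pairs of a group and batch differed by more than sampling noise. Positions came from GENCODE v44 and promoters from RefSeq (GRCh38.p14), matched by symbol for 5 of 8 members.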

Additional observations from a re-analysis of the deposited data

Results flagged for a closer look

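Of 60 sets of 4 to 10 samples examined, 1 held a value far from the others. Chance gives about 1 in 20 such sets where each set comes from a single normal distribution. Sets of 6 pooled both batches and shared samples with the within-batch sets, so that rate need not hold here. VPS41 in senescent replicate B4 was at 278 normalised read counts, and the nearest of the other 5 senescent samples was at 228, a gap of 0.665 of the range of the 6 samples. The value rested on 223 reads. The nearest sample belonged to batch A, and the other senescent samples of batch B were at 211 to 227. Among the senescent samples of batch B alone, replicate B4 was not flagged.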

How the results depend on the processing

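Over all genes, 1605 were called higher and 1632 lower. Without the batch term 1037 were called higher. With whole reads as input, edgeR gave 1561 higher and 1677 lower calls, and DESeq2 gave 1576 and 1647. The other alternatives gave counts within 1.5 times the main ones. Leaving out single libraries gave 1543 to 1643 called higher, 1563 to 1642 called lower, 3551 to 3655 higher in batch B, 3552 to 3735 higher in batch A, and 5 to 7 called genes of the lists. Scaling every library to the same total moved the median log2 fold change of all genes by -0.10, to -0.09, AP3B1 to 1.40, AP3S1 to -0.56, and VPS41 to 0.01. The batch difference of AP3M1 fell under the fold limit with TMM scaling (0.57) and edgeR (0.58), and that of AP3M2 with the same total (-0.58). CCDC186, BLOC1S5 and BLOC1S6 were not called in batch A alone, and VPS51 was not called in batch B alone, with a pseudocount of 8 or with the same total (0.49).

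Same-numbered samples of the groups did not deviate together (r of their deviations -0.05 to 0.02, and 0 of 6 numbers matched best with their own). No pairing by number was therefore seen, which does not exclude it. In batch A, with 2 samples per group, the deviations from the group mean mirror each other, so A1 and A2 gave the same r (-0.05). With the replicate block 1591 genes were called higher, 1620 lower and 7 of the lists, and the log2 fold changes of AP3B1 (1.51) and AP3S1 (-0.45) were the same. Batch A, with 2 samples per group, and the lowest counts (69 reads for AP3M2) limit the precision of the within-batch values.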

Other observations

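The subunits of the coat complexes can also be grouped by their place in the complex, a grouping chosen after the values were seen and given without a test. Of all 13847 tested genes, 7081 had a log2 fold change above 0, a background for the sign counts here and for BLOC-1 below. Of 6 beta subunits of AP-1 to AP-5, 5 were above 0, with a median of 0.27, and AP3B2 was the one below 0. Among those above 0, AP4B1 was at 0.01, with 0.20 within batch A and -0.09 within batch B. Of 8 sigma subunits, 5 were below 0, from -1.15 for AP1S2 to 0.44. Of 7 mu subunits, 5 were below 0, with a median of -0.06. In each of these groups at most 1 gene was called, beside 11.6% higher and 11.8% lower of all tested genes.

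Of the 8 subunits of BLOC-1, 7 had a log2 fold change below 0 and 6 were below 0 in both batches, with a median of -0.37 and 2 called lower, beside 11.8% of all tested genes. The 3 BLOC-2 genes had a median of -0.37 with 0 called by limma, edgeR or DESeq2 and 2 at an unadjusted p under 0.05 in limma, and both BLOC-3 genes were above 0.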
